A study of Mus musculus with 10 samples.

Results

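The genes described here were Gusb and 7 other genes for lysosomal glycosidases, Hexa, Man2b1, Glb1, Naglu, Fuca1, Gaa and Neu1, in microglia fractions of the mouse cortex. They were chosen by symbol with results of these libraries known, among them the fold change and p-value of Gusb between APP/PS1 and WT (rank 3 of all genes by p-value), so the values of the 8 genes are a description, and counts of them past a threshold are given only beside the share of all genes and support nothing. They are 8 of 24421 gene symbols in the count tables, and all 8 were among the 18727 genes that passed the filter on low counts.

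Read counts came from 10 libraries, with 3 from WT mice, 4 from APP/PS1 mice and 3 from APP/PS1 mice that received N-AS (APP/PS1+N-AS). All mice were 9 months old, and N-AS (N-acetyl sphingosine) was injected under the skin every day for 8 weeks at 30 mg/kg from 7 months of age. APP/PS1 mice are transgenic for human APP with the Swedish mutation and for a mutant presenilin-1, so both APP/PS1 groups carried the same transgenes. The study describes the APP/PS1 mice compared with N-AS as given vehicle, which the sample labels do not state. Each library was a pool of a pair of mice, and the cells were a density gradient fraction of papain-dissociated cortex, without sorting by a surface marker.

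Lysosomal glycosidases are acid hydrolases that remove sugars from glycoproteins, glycolipids, glycosaminoglycans and glycogen delivered to the lysosome by endocytosis, phagocytosis or autophagy. Each cuts 1 kind of sugar linkage, so a glycan chain is broken down by several of them in turn, and loss of a single enzyme causes a storage disease. In the brain, microglia are phagocytes with a high content of lysosomes, and cathepsins and related hydrolases are abundant in them. The enzymes are made in the endoplasmic reticulum, tagged with mannose 6-phosphate and carried to the lysosome, and transcription factors of the MiT/TFE family (Tfeb, Tfe3, Mitf and Tfec) bind an E-box-like element in promoters of many lysosomal genes.

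The promoters are shown as a description, and the E-box letters were present in only some of the windows. Any part of these letters in the levels of the genes was not tested. Each sequence holds the 250 bases before the transcription start in RefSeq, build GRCm38.p6, read 5′ to 3′ on the strand of the gene, and capitals mark TCACGTG. Gusb lies on chromosome 5 on the minus strand and its window was chr5:130003050-130003299. The other windows, all on the plus strand, were chr9:59539290-59539539 for Hexa, chr9:114400828-114401077 for Glb1, chr11:101069844-101070093 for Naglu and chr11:119267713-119267962 for Gaa. Of the genes whose promoters are not printed, Man2b1 lies at chr8:85082730-85098739, Fuca1 at chr4:135920726-135940300 and Neu1 at chr17:34931253-34937297, each on the plus strand.
Gusb: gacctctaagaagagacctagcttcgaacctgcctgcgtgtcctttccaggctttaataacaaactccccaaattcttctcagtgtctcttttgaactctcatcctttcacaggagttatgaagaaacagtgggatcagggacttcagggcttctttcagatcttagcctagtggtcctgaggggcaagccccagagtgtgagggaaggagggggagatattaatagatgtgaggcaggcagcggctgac
Hexa: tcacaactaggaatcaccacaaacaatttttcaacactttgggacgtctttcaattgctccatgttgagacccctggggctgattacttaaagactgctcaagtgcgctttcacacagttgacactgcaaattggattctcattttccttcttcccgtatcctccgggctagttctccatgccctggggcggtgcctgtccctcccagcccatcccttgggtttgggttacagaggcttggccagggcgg
Glb1: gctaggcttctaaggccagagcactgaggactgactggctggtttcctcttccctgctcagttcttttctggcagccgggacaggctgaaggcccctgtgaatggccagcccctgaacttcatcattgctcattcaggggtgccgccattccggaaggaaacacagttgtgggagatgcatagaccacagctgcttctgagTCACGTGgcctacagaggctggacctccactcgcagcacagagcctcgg
Naglu: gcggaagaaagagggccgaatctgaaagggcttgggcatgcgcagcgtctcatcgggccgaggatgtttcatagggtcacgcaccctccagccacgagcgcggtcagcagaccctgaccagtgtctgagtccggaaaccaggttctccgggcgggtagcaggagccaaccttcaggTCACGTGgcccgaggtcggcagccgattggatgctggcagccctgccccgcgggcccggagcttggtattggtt
Gaa: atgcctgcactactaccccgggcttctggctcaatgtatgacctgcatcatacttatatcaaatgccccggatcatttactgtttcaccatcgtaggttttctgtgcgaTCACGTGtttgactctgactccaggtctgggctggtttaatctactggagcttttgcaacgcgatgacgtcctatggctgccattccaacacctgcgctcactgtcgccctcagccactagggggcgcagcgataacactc
3 motifs were searched on both strands, from 250 bases before the start to 50 after it. The first was the E-box core CACGTG. The second, TCACGTG, adds a base before this core and so overlaps with it. The third was GAGGAAGT, a core of sites for the macrophage factor PU.1. TCACGTG was found in the windows of Glb1, Naglu and Gaa, and starts 49, 74 and 141 bases before the transcription start. Neither TCACGTG nor CACGTG was found in the windows of Gusb, Hexa, Man2b1, Fuca1 or Neu1. GAGGAAGT was found in the window of Gusb, on the minus strand, 38 bases after the start and outside the printed bases. TCACGTG was in the windows of 4.29% of all 27025 genes, CACGTG in 8.09% and GAGGAAGT in 3.69%. A match of letters is a description and not a site of binding.

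The level of a gene is given in CPM, its reads scaled to a common library size with edgeR's TMM factors, and differences as log2 fold change with its standard error (SE) from 1 edgeR model of the 10 libraries. The total count was 8805804 to 19432075 reads per library. WT replicate 1 had the lowest total but the fewest genes at 0, with 606, against 877 to 4025 in the other libraries. Reads of Xist, a transcript of the silenced X in females, numbered 33 to 37 per WT library against 5253 to 11188 per APP/PS1 library. Replicates 1, 2 and 3 of APP/PS1+N-AS had 7024, 8848 and 29, whereas the study's methods name male mice only. The summed reads of 4 Y-linked genes were 1492 to 3700 in WT, 495, 690, 13 and 13 in APP/PS1 and 470, 863 and 2377 in APP/PS1+N-AS. APP/PS1 and WT libraries therefore differed in both genotype and sex-linked transcripts, and the part of either in a difference between them cannot be told apart.

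The labelled cell type was checked with 14 microglial markers, all of which had reads in every library. Their summed level was 744 to 1028 CPM in WT, 2129 to 2561 CPM in APP/PS1 and 1274 to 1732 CPM in APP/PS1+N-AS, so the 3 groups did not overlap. Between APP/PS1 and WT 11 of 14 markers passed the test, all higher (edgeR's quasi-likelihood test, adjusted p under 0.05), beside 2.67% of all genes called higher. Of 8 oligodendrocyte markers 3 passed and were lower in APP/PS1 (summed level 1833 to 4561 CPM, against 2309 to 6570 CPM in WT), against 0 of 6 border macrophage, 0 of 6 monocyte and neutrophil, 0 of 8 neuronal and 0 of 6 endothelial markers by edgeR, with 0 of these at an unadjusted p under 0.05. Of 6 astrocyte markers 1 passed, Gfap, which was 10.9 to 17.6 CPM in WT, 499 to 923 CPM in APP/PS1 and 76.2 to 340.2 CPM in APP/PS1+N-AS. The other 5 astrocyte markers summed to 433 to 521 CPM in WT, 279 to 619 CPM in APP/PS1 and 334 to 718 CPM in APP/PS1+N-AS, so their ranges overlapped. Neuronal markers summed to 1479 to 4928 CPM in WT, above the microglial markers, 1939 to 2313 CPM in APP/PS1 and 1999 to 2851 CPM in APP/PS1+N-AS. Single libraries also stood out. Monocyte and neutrophil markers summed to 94.5 CPM in APP/PS1 replicate 3, against at most 24.9 CPM in any other library. WT replicate 3 had the highest neuronal sum, 4928 CPM, and the lowest endothelial sum, 425 CPM. In a bulk fraction, fewer microglia and less RNA per microglial cell cannot be told apart, and the part of these markers in the levels below was not tested.

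Gusb, which encodes beta-glucuronidase and removes glucuronic acid from the ends of glycosaminoglycan chains, had the largest difference of the 8 genes between APP/PS1 and WT. Its level was 11.9, 12.7 and 12.4 CPM in WT replicates 1 to 3. In APP/PS1 replicates 1 to 4 it was 50.3, 56.3, 80.4 and 73.1 CPM, and in APP/PS1+N-AS replicates 1 to 3 it was 36.0, 43.4 and 31.2 CPM. The WT libraries were nearly equal, every APP/PS1 library was above them, and every APP/PS1+N-AS library lay between the other groups without overlap. The mean was 12.3 ± 0.407 CPM in WT (SD, n = 3), 65.0 ± 14.1 CPM in APP/PS1 (n = 4) and 36.9 ± 6.16 CPM in APP/PS1+N-AS (n = 3). These values rest on 100 to 257 reads per WT library and 422 to 1535 reads per library of the other groups. The log2 fold change was 2.40 (SE 0.19) for APP/PS1 against WT, a mean ratio of 5.28, the 65th largest of 18727 genes. Against APP/PS1, the APP/PS1+N-AS level was lower by a log2 fold change of −0.82 (SE 0.18), and against WT it was higher by 1.58 (SE 0.20). The APP/PS1 libraries serve in the first pair of these comparisons and the WT libraries in the first and last, so the 3 values are not independent.

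**Figure D1:**
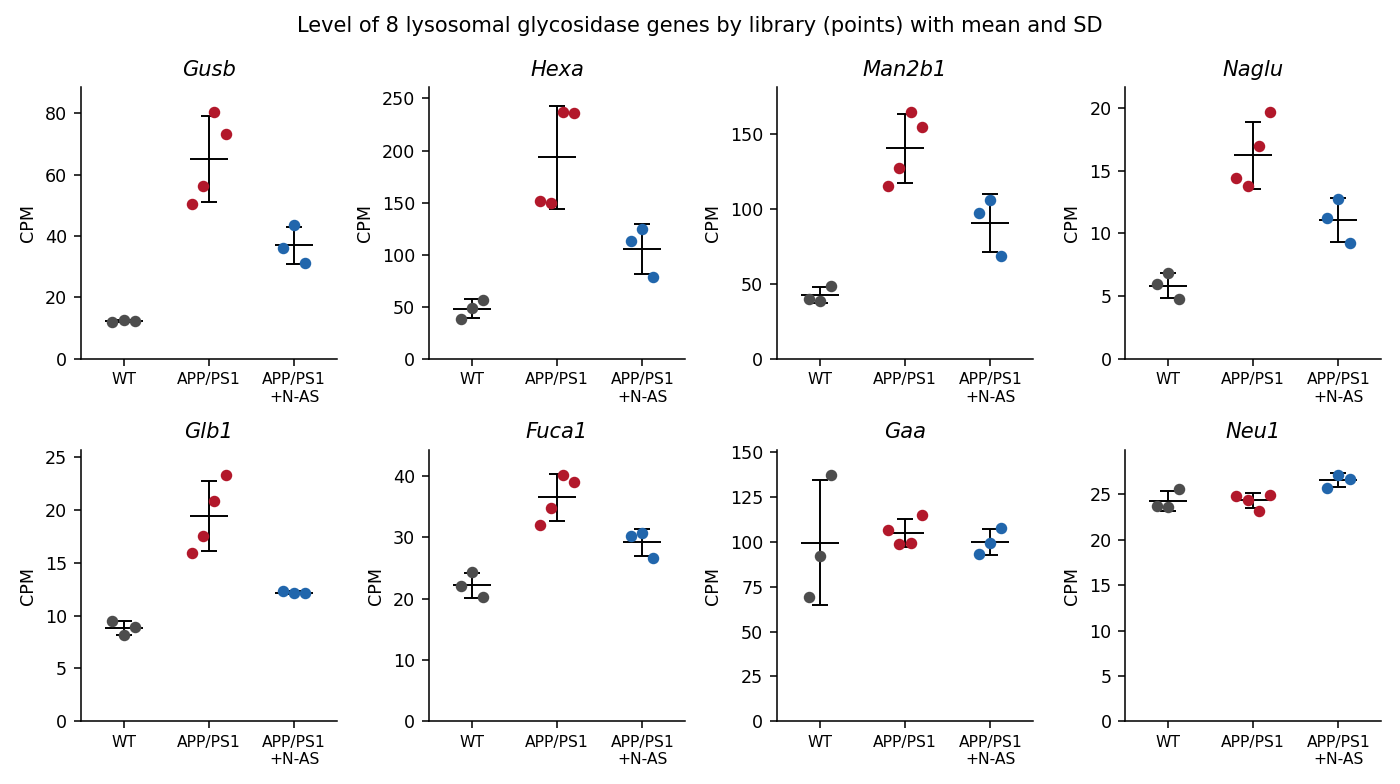
Level of the 8 genes in CPM (vertical axes, linear and from 0, a scale for each gene) in the WT, APP/PS1 and APP/PS1+N-AS libraries; points are libraries, horizontal bars means and vertical bars SD. For Gusb, Hexa, Man2b1, Naglu, Glb1 and Fuca1 the 3 groups do not overlap and APP/PS1+N-AS lies between WT and APP/PS1, whereas Gaa overlaps in all groups and Neu1 in WT and APP/PS1.

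Hexa, the alpha subunit of beta-hexosaminidase A that is needed to degrade GM2 ganglioside, followed the same order at a higher level. Hexa was 38.3, 48.4 and 56.5 CPM in WT, 151, 150.0, 237 and 236 CPM in APP/PS1 and 113, 124 and 78.0 CPM in APP/PS1+N-AS. All APP/PS1 libraries were above all APP/PS1+N-AS libraries, which were above all WT libraries. APP/PS1 replicates 3 and 4 stood above replicates 1 and 2, and APP/PS1+N-AS replicate 3 was the lowest of its group. Means were 47.7 ± 9.14 CPM (SD, n = 3), 194 ± 49.6 CPM (n = 4) and 105 ± 24.1 CPM (n = 3), and the log2 fold changes were 2.02 (SE 0.25) for APP/PS1 against WT, −0.88 (SE 0.24) for APP/PS1+N-AS against APP/PS1 and 1.13 (SE 0.25) for APP/PS1+N-AS against WT. Exons of Hexa share 255 bases with Tmem202 on the opposite strand, and Tmem202 had 2 to 13 reads per library, against at least 322 for Hexa.

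Man2b1 and Naglu act on N-linked glycans and heparan sulfate and came next in the size of the difference. Man2b1, lysosomal alpha-mannosidase, ranged over 38.8 to 48.6 CPM in WT, 115 to 165 CPM in APP/PS1 and 68.7 to 106 CPM in APP/PS1+N-AS. Naglu, which removes N-acetylglucosamine from heparan sulfate, ranged over 4.77 to 6.81, 13.8 to 19.7 and 9.24 to 12.7 CPM. Neither gene overlapped between any groups, and for both the APP/PS1+N-AS libraries lay between WT and APP/PS1. For Man2b1 the log2 fold change was 1.72 (SE 0.19) in APP/PS1 against WT and −0.63 (SE 0.19) in APP/PS1+N-AS against APP/PS1. For Naglu the corresponding values were 1.48 (SE 0.20) and −0.55 (SE 0.19), with 50 to 110 reads in the WT libraries.

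Glb1, lysosomal beta-galactosidase, cleaves galactose from GM1 ganglioside and keratan sulfate, and is also the enzyme behind the senescence-associated stain. Glb1 was 9.51, 8.17 and 8.92 CPM in WT, 16.0, 17.5, 20.9 and 23.4 CPM in APP/PS1 and 12.3, 12.1 and 12.1 CPM in APP/PS1+N-AS. The APP/PS1+N-AS libraries had a coefficient of variation of 0.918% (n = 3) and did not overlap with either other group. They held 164 to 229 reads of Glb1 each, too few to resolve so small a spread. The log2 fold change was 1.14 (SE 0.16) for APP/PS1 against WT and −0.68 (SE 0.15) for APP/PS1+N-AS against APP/PS1. Glb1 shares 165 exon bases on the same strand with Tmppe, which had 487 to 1031 reads per library, against 80 to 491 for Glb1. The counting could have split the shared reads either way. Tmppe itself did not pass in APP/PS1 against WT (log2 fold change −0.09, SE 0.11, adjusted p = 0.747 by edgeR).

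Fuca1, alpha-L-fucosidase, removes fucose from glycoproteins and glycolipids and had the smallest difference of the 6 genes that were higher. It ranged over 20.2 to 24.3 CPM in WT, 32.0 to 40.2 CPM in APP/PS1 and 26.7 to 30.7 CPM in APP/PS1+N-AS. The groups again did not overlap, with log2 fold changes of 0.72 (SE 0.13) for APP/PS1 against WT and −0.32 (SE 0.13) for APP/PS1+N-AS against APP/PS1.

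Gaa and Neu1 stood apart from the other 6 genes. Gaa, acid alpha-glucosidase, degrades glycogen in the lysosome and was 69.4, 91.9 and 137 CPM in WT, 107, 98.7, 99.1 and 115 CPM in APP/PS1 and 93.2, 99.1 and 108 CPM in APP/PS1+N-AS. The WT libraries covered the whole range of the other groups, and the log2 fold changes were 0.07 (SE 0.20) for APP/PS1 against WT and −0.07 (SE 0.20) for APP/PS1+N-AS against APP/PS1. Without WT replicate 3, the highest, the APP/PS1 against WT value was 0.38, and without WT replicate 1, the lowest, it was −0.13. Neu1, the lysosomal sialidase, was 23.8, 23.6 and 25.6 CPM in WT, 24.9, 24.4, 23.2 and 24.9 CPM in APP/PS1 and 25.7, 27.2 and 26.7 CPM in APP/PS1+N-AS. WT and APP/PS1 overlapped with a log2 fold change of 0.00 (SE 0.10), and the APP/PS1+N-AS libraries were all slightly above the APP/PS1 libraries, by 0.13 (SE 0.10). Neu1 works in the lysosome in a complex with the Glb1 product and the protective protein encoded by Ctsa.

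**Figure D2:**
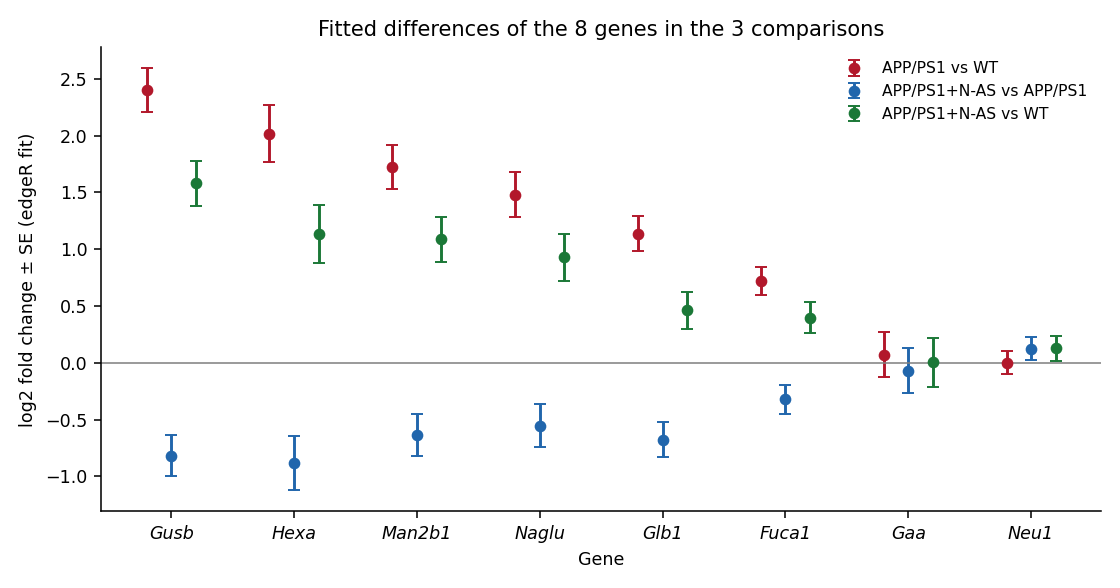
Fitted log2 fold change (vertical axis) with SE bars for each gene in APP/PS1 against WT, APP/PS1+N-AS against APP/PS1 and APP/PS1+N-AS against WT. The APP/PS1 against WT values run from 2.40 for Gusb to 0.00 for Neu1, and the APP/PS1+N-AS against APP/PS1 values from −0.88 for Hexa to 0.13 for Neu1.

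Between APP/PS1 and WT 6 of the 8 genes had an adjusted p under 0.05, all higher, where 2.67% of all genes tested were called higher and 3.47% in either direction. The same 6 genes were those without overlap between the groups, where 8.15% of all genes were higher without overlap. The median log2 fold change was 1.31 over the 8 genes and −0.07 over all genes. Since the genes were chosen with this comparison known, these counts describe the choice and carry no further weight.

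In APP/PS1+N-AS against APP/PS1 0 of the 8 genes had an adjusted p under 0.05 by edgeR, as did 0% of all genes, for which the lowest adjusted p was 0.405. At an unadjusted p under 0.05, 6 of 8 were lower, beside 4.05% of all genes, and the same 6 were lower without overlap, beside 6.46% of all genes. DESeq2 called 2 of the 8 in this comparison, Gusb and Glb1, beside 73 of the 24305 genes it was fitted to (0.300%). The median log2 fold change was −0.59 over the 8 genes and −0.01 over all genes. Against WT, only Gusb had in APP/PS1+N-AS an adjusted p under 0.05 by edgeR, beside 0.176% of all genes called higher, and 7 of 8 were higher without overlap, beside 4.90% of all genes. Gusb was chosen with its values known and the WT libraries serve again here, so this call is a description too. It was lost without any 1 of WT replicate 1, WT replicate 2, APP/PS1+N-AS replicate 1 and APP/PS1+N-AS replicate 2, with the replicate block and with only the groups compared. DESeq2 called 4 of the 8 genes in APP/PS1+N-AS against WT, all higher, beside 0.741% of the 24305 genes, which is again a description.

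The first 6 library numbers belong to replicates 1 and 2 of the groups and numbers 7 to 10 to the remaining replicates, and the labels do not say whether they were made at different times. For Gusb the difference in mean log2 CPM of APP/PS1 and WT was 2.10 within numbers 1 to 6 and 2.62 within 7 to 10. The difference of APP/PS1+N-AS and APP/PS1 was −0.43 and −1.29 in the same sets. For Hexa the latter difference was −0.35 and −1.60. The direction was the same in both sets for the 6 genes, and the distance between APP/PS1+N-AS and APP/PS1 was the larger in numbers 7 to 10, where a set holds 1 or a pair of libraries per group and no test was made.

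Sex-linked transcripts moved with this split. In numbers 1 to 6 the APP/PS1 and APP/PS1+N-AS libraries all had both Xist and Y-linked reads. In numbers 7 to 10 the APP/PS1 libraries had 13 Y-linked reads each and the APP/PS1+N-AS library had 29 Xist reads, as few as WT. Between APP/PS1+N-AS and APP/PS1 in numbers 7 to 10, the parts of N-AS and of sex-linked transcripts therefore cannot be told apart either. That APP/PS1+N-AS library was the lowest of its group for 6 of 8 genes. Its Gusb level was 31.2 CPM, and the highest WT library had 12.7 CPM. The part of sex-linked transcripts in these levels was not tested. Without that APP/PS1+N-AS library, the log2 fold change of Gusb was −0.70 against APP/PS1 and 1.71 against WT, and Man2b1 was also called against WT.

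Compared per kilobase of exon (union of GENCODE M21 exons), Hexa had the highest level of the 8 genes in each group, with a mean of 23.9 ± 4.58 CPM per kb in WT, 97.0 ± 24.8 in APP/PS1 and 52.6 ± 12.1 in APP/PS1+N-AS. Gaa was second in each group, at 20.8 ± 7.25, 21.9 ± 1.59 and 20.9 ± 1.53 CPM per kb, and overlapped with Hexa in WT only. Gusb was seventh in WT, at 2.71 ± 0.0896 CPM per kb, where its range overlapped with that of Glb1 above it and lay above that of Naglu below it. In APP/PS1 Gusb was the fourth, at 14.3 ± 3.10 CPM per kb, overlapping with Man2b1 above it and Fuca1 below it. It was the fifth in APP/PS1+N-AS, at 8.11 ± 1.35 CPM per kb, and overlapped with Fuca1 and Neu1. Neu1 kept a level of 6.51 ± 0.291, 6.52 ± 0.208 and 7.11 ± 0.206 CPM per kb, the fourth in WT and the sixth in both APP/PS1 groups. The order between genes depends on these lengths, 1996 bases for Hexa, 4548 for Gusb and 8026 for Man2b1. The annotation used to count the reads was not given, and other lengths were not tried.

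Relative to the microglial markers, the 8 genes differed: 2 were higher in APP/PS1 than in WT without overlap, 3 overlapped and 3 were lower without overlap. The mean log2 CPM of the 14 markers was higher by 1.39 in APP/PS1 than in WT, lower by a difference of −0.56 in APP/PS1+N-AS than in APP/PS1 and higher by 0.84 in APP/PS1+N-AS than in WT. With the marker mean subtracted in each library, Gusb was −1.71, −1.80 and −2.20 in WT and −1.18, −1.06, −0.81 and −0.69 in APP/PS1. Gusb was thus higher relative to the markers in every APP/PS1 library, by 0.97 on the log2 scale, and Hexa was higher without overlap by 0.61. Man2b1, Naglu and Glb1 overlapped between APP/PS1 and WT, with differences of 0.32, 0.06 and −0.29. Fuca1, Gaa and Neu1 were lower relative to the markers without overlap, by −0.68, −1.27 and −1.39. Between APP/PS1+N-AS and APP/PS1 the relative levels of the 6 genes from Gusb to Fuca1 overlapped, with a difference of −0.24 for Gusb and −0.31 for Hexa, whereas Gaa and Neu1 were higher without overlap, by 0.49 and 0.68. A subtraction of this kind depends on the markers, which themselves differ in expression between states of microglia, so it shows unequal differences and not a level per cell.

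**Figure D3:**
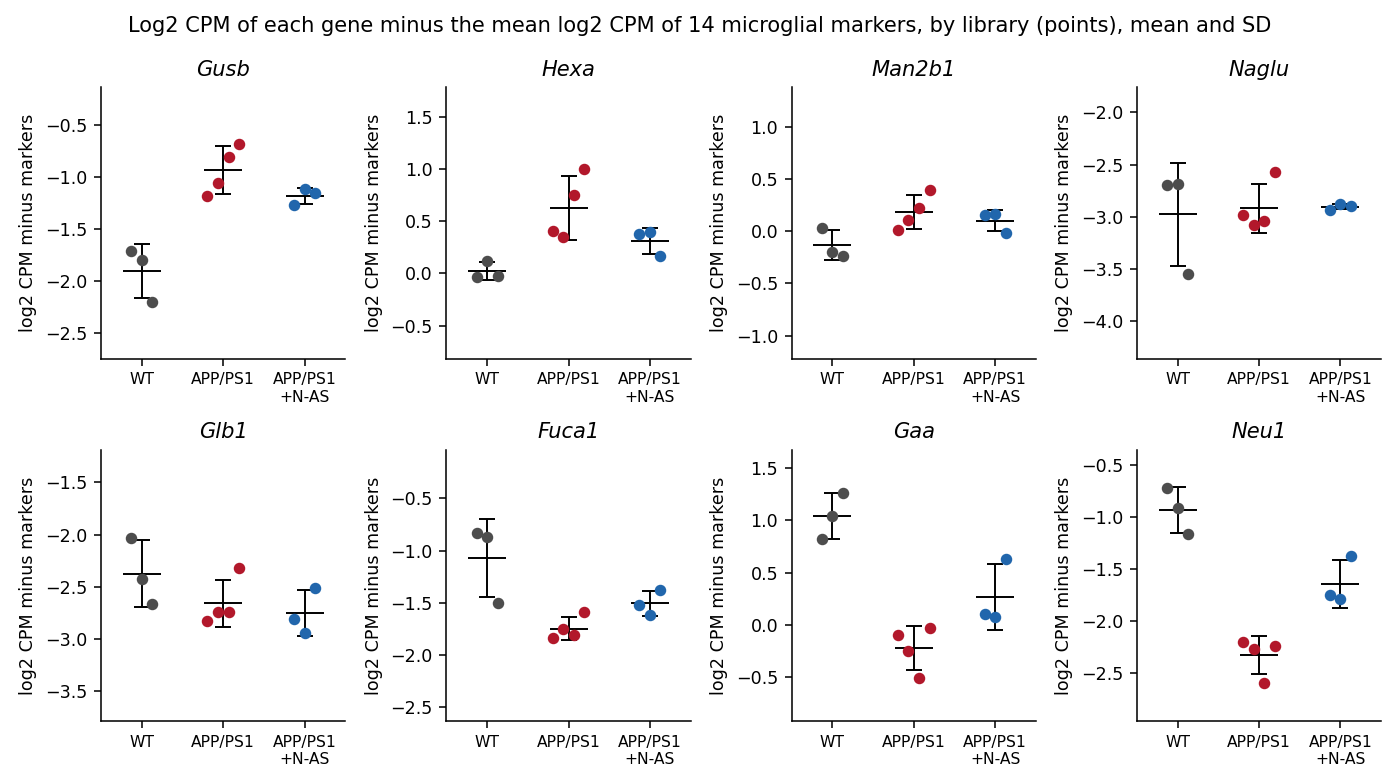
Log2 CPM of each gene minus the mean log2 CPM of 14 microglial markers (vertical axes, each spanning the same 2.6 log2 units) in the WT, APP/PS1 and APP/PS1+N-AS libraries; points are libraries, horizontal bars means and vertical bars SD. Gusb and Hexa lie higher in all APP/PS1 than in all WT libraries, Man2b1, Naglu and Glb1 overlap, and Fuca1, Gaa and Neu1 lie lower.

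Across the 10 libraries, the log2 CPM of Gusb, Hexa, Man2b1, Naglu, Glb1 and Fuca1 varied together. The libraries fall into 3 groups with different means, so these values describe the grouping, and no test is given. Pearson's r of Gusb was 0.978 with Hexa, 0.987 with Man2b1, 0.974 with Naglu, 0.942 with Glb1 and 0.969 with Fuca1. It was 0.216 with Gaa and 0.064 with Neu1. After the group means had been removed, r of Gusb was 0.876 with Hexa, 0.857 with Man2b1, 0.835 with Fuca1, 0.712 with Naglu and 0.684 with Glb1, and Gaa with Neu1 had an r of 0.714. The genes most like Gusb over the 10 libraries were Mpeg1, which encodes a pore-forming protein of macrophages (r = 0.993), Fcgr2b, an inhibitory Fc receptor (r = 0.993), Ctsl, a lysosomal protease (r = 0.992), Lyz2, lysozyme (r = 0.991) and Tbxas1, thromboxane synthase (r = 0.990). The genes most like the mean of the other 7 were Klhl6, Ptprc, which encodes the leukocyte antigen CD45, Fcgr2b, Sgpl1 and Ctsb, a lysosomal protease, each with r = 0.994.

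The other genes of glycan breakdown were taken from 6 lists by role, 43 genes of which 41 were tested, and the comparison asks whether the differences reached beyond the 8 genes. Between APP/PS1 and WT 9 of the 41 genes passed by edgeR's quasi-likelihood test (adjusted p under 0.05), all of them higher in APP/PS1, or 22%, beside 3.47% of all genes in either direction. The median log2 fold change was 0.35 over the 41 genes and −0.07 over all genes. DESeq2 called 14, beside 5.34% of all genes, of which 12 were higher and 2, Sgsh and Arsg, were lower. Without APP/PS1 replicate 4 edgeR called 5, all higher, without WT replicate 3 it called 10, of which 2 were lower, and with the replicate block it called 6, of which 1, Sgsh, was lower. The lists were written with results of these data known, and the count is no independent support for a pathway.

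Among 12 other lysosomal glycosidases tested 4 rose in APP/PS1, Man2b2 and Hpse among them, beside 2.67% of all genes called higher. All 12 had a positive log2 fold change, and the median over all genes was −0.07. Man2b2, an epididymis-type alpha-mannosidase, rose from 21.5 ± 1.85 to 42.8 ± 4.08 CPM (log2 fold change 1.00, SE 0.15, adjusted p = 0.00562 by edgeR). Hpse, heparanase, which cuts heparan sulfate chains inside and outside cells, rose from 1.25 ± 1.02 to 8.74 ± 2.83 CPM, the largest log2 fold change of the list at 2.92 (SE 0.55, adjusted p = 0.0168 by edgeR). Hpse had only 6 to 21 reads in the WT libraries and lost its call without APP/PS1 replicate 4 (adjusted p = 0.0511 by edgeR) and with the replicate block (0.0560).

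**Figure D4:**
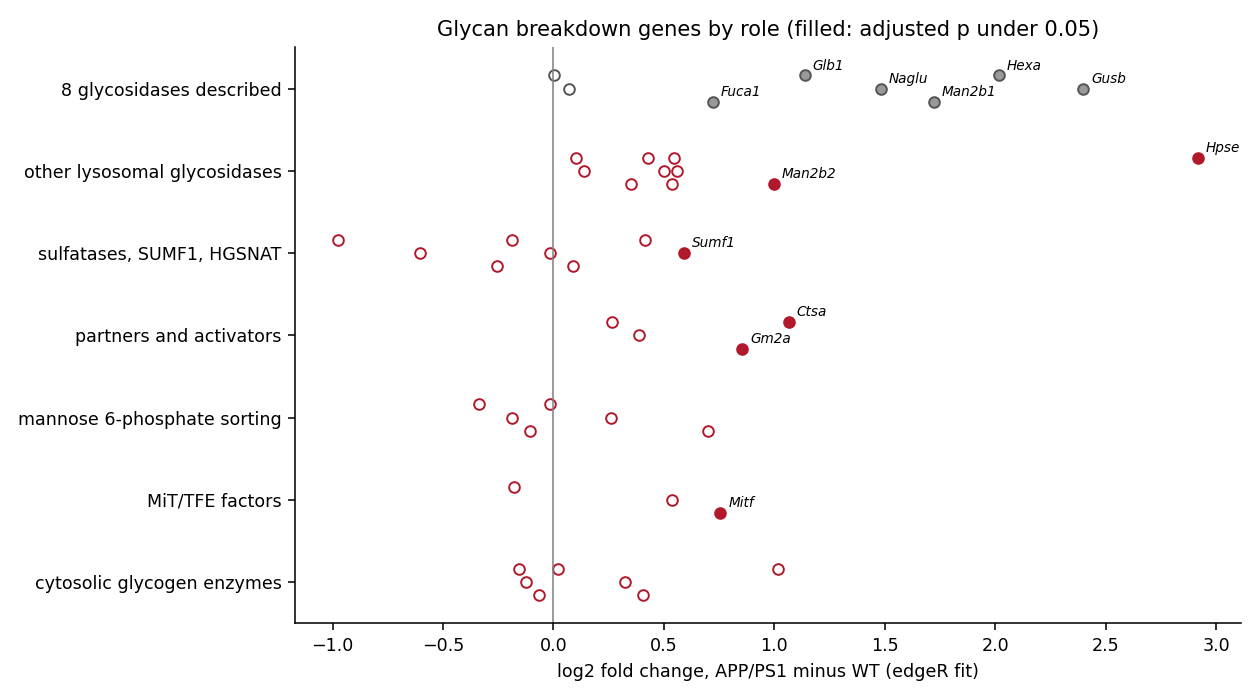
Log2 fold change of APP/PS1 against WT (horizontal axis) for the 8 genes described (grey) and for 38 of the 41 other genes in 6 lists by role (red); each point is a gene, filled where the adjusted p was under 0.05 in edgeR's quasi-likelihood test, and vertical offsets within a list only separate the points. The filled red points, 6 in all, lie between 0.59 for Sumf1 and 2.92 for Hpse.

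Of 9 sulfatases and related enzymes 2 rose, Sumf1 among them, beside 2.67% of all genes called higher, and the median of the list was −0.02. Sumf1, which activates all sulfatases, rose by a log2 fold change of 0.59 (SE 0.14, adjusted p = 0.0485 by edgeR), a call kept in 4 of 19 settings and lost with any 1 library left out. Sgsh, heparan N-sulfatase, had a log2 fold change of −0.60 (SE 0.17, adjusted p = 0.0897 by edgeR), and Arsg of −0.98 (SE 0.30, adjusted p = 0.118 by edgeR). Enzymes that act on the same polymer, heparan sulfate, had fitted values from 2.92 for Hpse to −0.98 for Arsg. Of those named, Sgsh and Arsg were below 0, but neither passed by edgeR. Arsg also overlapped between APP/PS1 and WT.

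Among 4 partners and activators, Ctsa and Gm2a rose, beside 2.67% of all genes called higher, whereas Psap and Scarb2 did not pass. Ctsa, the protective protein of the Neu1 and Glb1 complex, was 102, 114 and 82.7 CPM in WT, 185, 197, 216 and 235 CPM in APP/PS1 and 145, 165 and 135 CPM in APP/PS1+N-AS. It rose by a log2 fold change of 1.06 (SE 0.16, adjusted p = 0.00493 by edgeR), beside 1.14 for Glb1 and 0.00 for Neu1. Gm2a, which presents GM2 ganglioside to the enzyme that holds the Hexa product, rose from 19.5 ± 2.06 to 35.2 ± 4.36 CPM (log2 fold change 0.85, SE 0.15, adjusted p = 0.0107 by edgeR). The calls of Man2b2, Ctsa and Gm2a were kept in 19 of 19 settings.

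In the 6 genes of mannose 6-phosphate sorting 0 passed by edgeR in APP/PS1 against WT, with 1 at an unadjusted p under 0.05. The lowest p-values were those of Nagpa, the uncovering enzyme (log2 fold change 0.70, SE 0.18, adjusted p = 0.0634 by edgeR), and M6pr, a mannose 6-phosphate receptor (0.26, SE 0.12, adjusted p = 0.308 by edgeR). DESeq2 called Nagpa. Of 3 tested factors of the MiT/TFE family Mitf rose, from 15.0 ± 2.32 to 25.3 ± 3.11 CPM (log2 fold change 0.76, SE 0.16, adjusted p = 0.0254 by edgeR), while Tfe3 at 0.54 (SE 0.13, adjusted p = 0.0528 by edgeR) and Tfeb at −0.18 (SE 0.20, adjusted p = 0.704 by edgeR) did not pass. The call of Mitf was lost without WT replicate 2 or APP/PS1 replicates 3 or 4, with the replicate block and with only the groups compared, with adjusted p by edgeR of 0.0581 to 0.0892. Of 7 enzymes of cytosolic glycogen 0 passed by edgeR, with 1 at an unadjusted p under 0.05, and 0 by DESeq2. Their lowest p-values were those of Pygl, liver glycogen phosphorylase (1.02, SE 0.34, adjusted p = 0.155 by edgeR), and Gbe1, the branching enzyme (0.41, SE 0.20, adjusted p = 0.343 by edgeR).

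In APP/PS1+N-AS against APP/PS1 0 of the 41 genes passed by edgeR or by DESeq2, and 11 had an unadjusted p under 0.05, of which 10 were lower and Sgsh was higher, beside 8.83% of all genes in either direction. Hpse was 7.08, 5.62, 11.0 and 11.3 CPM in APP/PS1 and 3.03, 2.76 and 1.26 CPM in APP/PS1+N-AS, and did not overlap (log2 fold change −1.89, SE 0.50, adjusted p = 0.494 by edgeR). Ctsa had a log2 fold change of −0.49 (SE 0.16), Gm2a of −0.51 (SE 0.14) and Mitf of −0.58 (SE 0.15), with adjusted p by edgeR of 0.497, 0.494 and 0.494. The median over the 41 genes was −0.13. Against WT, 0 of 41 passed in APP/PS1+N-AS by edgeR and 8 had an unadjusted p under 0.05, all higher, beside 6.73% of all genes in either direction, with a lowest adjusted p of 0.150. DESeq2 called 1 of 41 in this comparison, beside 0.741% of the 24305 genes it was fitted to.

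In the promoter windows, TCACGTG was found in 5 listed genes, Arsa, Ctsa, Gla, Sgsh and Sumf1. The search covered only the lists of other glycosidases, of sulfatases and of partners and activators. Genes of mannose phosphate sorting, of the MiT/TFE family and of cytosolic glycogen were not searched. The 33 listed genes with a RefSeq window include some of these, so 33 is not the number searched. Of the genes found, Ctsa and Sumf1 were among the 9 that rose in APP/PS1, of which only 6 had a RefSeq window. Mitf was 1 of the 9 and was not searched. Over all genes the share with TCACGTG was 4.29%, and the share in the searched lists was not computed.

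Position was not used to choose the genes, so the neighbours of each gene were tested as well. The 5 nearest tested protein-coding genes on each side of the 8 genes gave 80 neighbours, of which 2 passed in APP/PS1 against WT, or 2.5%, beside 3.47% of all genes. These were D17H6S56E-5 near Neu1, which rose (log2 fold change 1.33, SE 0.30, adjusted p = 0.0390 by edgeR), and Neo1 near Hexa, which fell (−0.47, SE 0.11, adjusted p = 0.0448 by edgeR). With 1 library left out in turn, 0 to 3 neighbours passed.

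Gusb lies at chr5:129989011-130003049 (GRCm38.p6), between Vkorc1l1 and Asl. Its 10 neighbours had a median log2 fold change of 0.00 in APP/PS1 against WT, against 2.40 for Gusb, and 0 of 10 passed by edgeR. On one side the values were −0.07 for Vkorc1l1, 0.04 for Nupr1l, 0.01 for Zbed5, 0.13 for Chchd2 and −0.28 for Phkg1. On the other side they were 0.13 for Asl, −0.01 for Crcp, −0.10 for Tpst1, −0.63 for Kctd7 and 0.12 for Rabgef1. Kctd7 was the only one of the 10 at an unadjusted p under 0.05 (SE 0.19, adjusted p = 0.106 by edgeR).

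**Figure D5:**
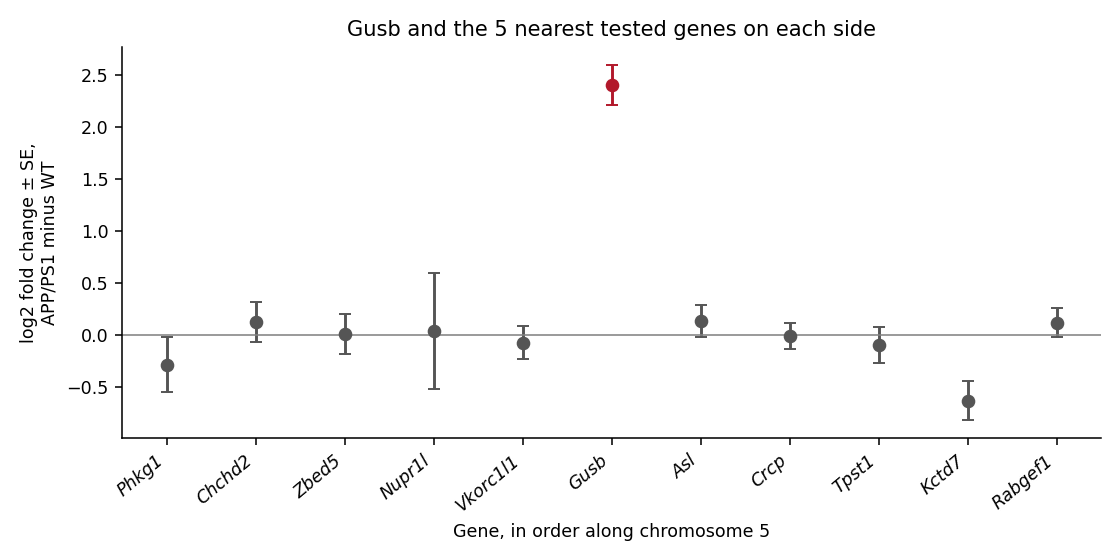
Log2 fold change of APP/PS1 against WT (vertical axis) with SE bars for Gusb (red) and the 5 nearest tested protein-coding genes on each side (grey), in their order along chromosome 5. Gusb is at 2.40 and its neighbours lie between −0.63 for Kctd7 and 0.13 for Asl.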

How the data were processed

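RNA of density gradient microglia fractions was sequenced by the authors (paired reads, ribosomal RNA removed, stranded kit), aligned with TopHat, and counted on transcript regions. The deposited files hold raw counts per gene symbol for each library, without normalization. The submitters' notes name mm10, and the annotation and the strand setting of the counting are not given in the sources used here. The FPKM values and the quantile normalization of the study were not used.

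Groups and replicate numbers came from the sample labels. The 103 lines sharing 43 symbols were summed, and 18727 of 24421 symbols passed filterByExpr. The test was that of edgeR 4.0.16, run in R 4.3.3 on the counts (TMM, glmQLFit and glmQLFTest, 1 model of 3 groups, Benjamini-Hochberg over all genes, threshold 0.05; BCV 27.4%). A prior count of 2 was added for log2 CPM. The script was tested on simulated counts. Library totals were 8805804 to 19432075, PCR reads carried no molecular identifiers, and nothing says more of the replicates than that each is a pool, so p-values measure the spread between these libraries.

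The genes, the lists and the rule for named genes were chosen with earlier results of these data known. Named were the 8 genes, called genes of the 6 lists (where none was called, the pair with the lowest p), Ctsa, called neighbours, the 10 neighbours of Gusb, the 5 genes most like Gusb and most like the mean of the other 7, and Xist and Y-linked genes; Sgsh, Arsg, Psap, Scarb2, Tfe3, Tfeb and Tmppe were added after their values were seen. Results of 3 listed genes are not reported here, though the counts over lists include them. Exon lengths and overlaps came from GENCODE M21, positions, promoters and neighbours from RefSeq (GRCm38.p6).

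Replicate numbers come from the labels. Same-numbered APP/PS1+N-AS and APP/PS1 libraries deviated together from their group means (r = 0.278, 0.142 and 0.309 over genes), and the replicate block left the count of called genes in that comparison at 0. Replicate numbers also follow the library number sets, so r cannot separate a pairing from these sets.

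Tried instead were other scaling (total counts, upper quartile), DESeq2 1.42.0, voom in limma 3.58.1 after quantile normalization, a filter of 1 read or one of 10 counts in each library, a term for the replicate or for the library number set, a fit of the compared groups alone, omission of 1 library at a time, and values within library number sets.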

Additional observations from a re-analysis of the deposited data

How the results depend on the processing

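The direction of Gusb, Hexa, Man2b1, Naglu, Glb1 and Fuca1 in each comparison was the same in 19 of 19 settings, and the 6 were called in APP/PS1 against WT in each, except Fuca1 under the replicate block (5 called). Reads per WT library were as few as 6 for Hpse and 50 for Naglu, which limits the precision of both. For APP/PS1 against WT, 649 genes were called by edgeR, 1297 by DESeq2, 1055 with library numbers as a covariate and 410 with only the groups compared. For APP/PS1+N-AS against APP/PS1, DESeq2 called 73 genes, against 0. For APP/PS1+N-AS against WT, 35 were called, against 180 by DESeq2, 64 with library numbers, 20 with voom and 2 with only the groups compared. Of the 41 other glycan breakdown genes DESeq2 called 14 in APP/PS1 against WT, against 9, and 1 in APP/PS1+N-AS against WT, as did the library numbers, against 0. Of the 80 neighbours, 2 were called, against 5 by DESeq2, 4 with library numbers, 1 with total counts or with no filter and 0 with only the groups compared.

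With 1 library left out in turn, APP/PS1 against WT gave 299 (without APP/PS1 replicate 3 or 4) to 923 genes (without WT replicate 3), APP/PS1+N-AS against APP/PS1 0 to 1 and APP/PS1+N-AS against WT 1 (without WT replicate 2) to 116 (without APP/PS1+N-AS replicate 3). The other glycan breakdown genes called were 5 (without APP/PS1 replicate 4) to 10 in APP/PS1 against WT and 0 to 1 in APP/PS1+N-AS against WT, and the neighbours 0 to 3. Fewer samples enter these fits, and other causes were not tested.

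For the pairing by replicate number, r of the deviations was −0.485, 0.441 and −0.00962 in APP/PS1 against WT and −0.136, 0.348 and 0.24 in APP/PS1+N-AS against WT. These values had both signs and do not decide whether same-numbered libraries were paired. With the replicate block, 326 genes were called in APP/PS1 against WT and 5 in APP/PS1+N-AS against WT, and of the 41 other glycan breakdown genes 6 in APP/PS1 against WT.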
